A study of Oryctolagus cuniculus with 10 samples.

Results

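The mevalonate path is the chain of reactions by which the liver builds squalene from acetyl-CoA. The 6 genes described here encode enzymes of that chain: ACAT2, HMGCS1, MVK, PMVK, FDPS and FDFT1. They were chosen by their place in the path, with the squalene/control ratios of these same levels already known, so those ratios are given as a description and no test is made on them. Each of the 6 symbols had a single row among the 19123 genes of the table.

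The livers came from male wild-type New Zealand white rabbits. Rabbits of the squalene group (n = 5) ate for 4 weeks a diet with 1% sunflower oil to which 0.5% squalene had been added, and those of the control group (n = 5) the diet with 1% sunflower oil alone. All animals were starved before the livers were taken, and poly-A RNA was sequenced with 45260000 to 46120000 clean reads in each of the 10 libraries. A figure legend of the study calls the sequenced samples partially pooled, without further detail, so a library may not stand for a single rabbit. The comparison asked how dietary squalene changed the hepatic transcriptome.

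In the first reactions acetyl-CoA is condensed to acetoacetyl-CoA and then to HMG-CoA, which is reduced to mevalonate. Mevalonate is phosphorylated and decarboxylated to the 5-carbon isoprenoid units, these are joined to farnesyl diphosphate, and squalene synthase couples farnesyl diphosphate into squalene. In mammals the genes of the path are activated by the transcription factor SREBP-2 (gene SREBF2) when sterols in the endoplasmic reticulum are low. Squalene taken up from the diet enters after the last of these steps.

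Gene levels were available as 1 value per diet, the authors' summary of 5 rabbits, without a value or a spread per rabbit. No difference below therefore has an error, and none has been tested against the variation between animals. The decimal mark of every level of 1 or more was lost in the deposited table, so the levels themselves could not be printed and each gene is given by its squalene/control ratio. A ratio was read as the one lying between 0.316 and 3.16, since only the power of 10 was missing. Both levels were intact for 2953 genes, and none of them lay outside these bounds. Of the 242 genes with 1 intact level, 1 had a ratio that could only be outside, at 3.92. For the other 15928 genes, the 6 among them, the bounds were assumed.

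All 6 genes had a lower level on the squalene diet, and they fell into 2 sets of 3. HMGCS1, MVK and FDPS stood between 47.3% and 60.1% of their control level, and ACAT2, PMVK and FDFT1 between 87.9% and 92.0%. A difference of 1.5-fold was used as the mark of a large one, and 3 of the 6 genes were lower by more than that. Of all genes, 2.99% were lower and 4.70% higher by more than 1.5-fold. This contrast was in view when the genes were picked, so nothing is read from the count. The gene nearest to the mark among the 3 was FDPS, with a ratio of 0.601, and the nearest on the other side was FDFT1, with 0.879. In bulk liver RNA, fewer cells of a type and less RNA per cell cannot be told apart.

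**Figure D1:**
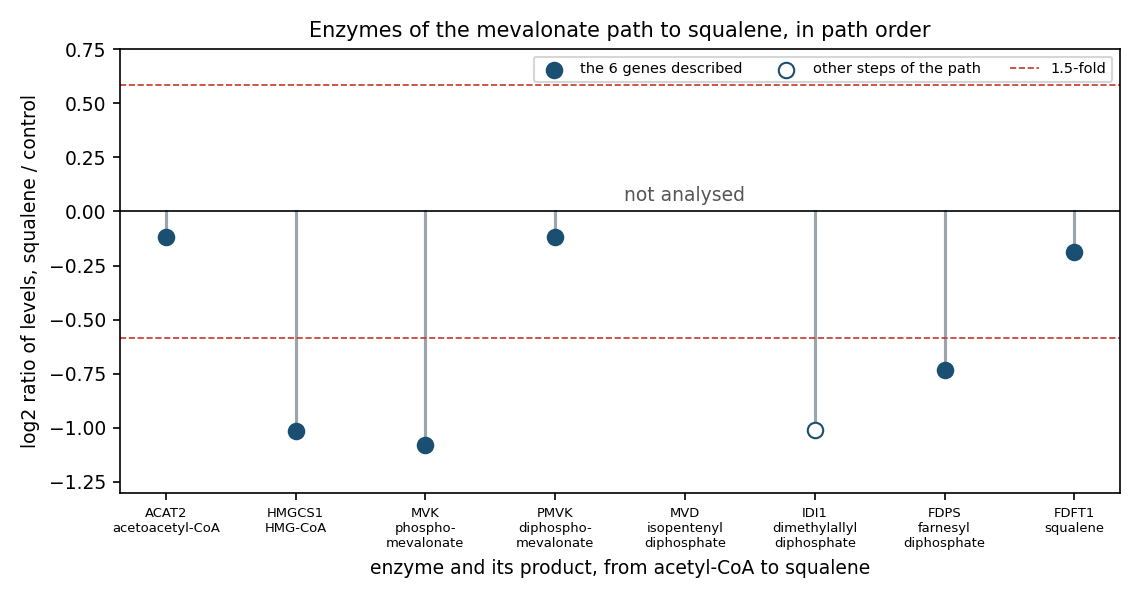
The log2 squalene/control ratio of the authors' levels (vertical axis) is drawn for the enzymes reported in the order of the path (horizontal axis). Filled points are the 6 genes and the open point IDI1, dashed lines mark 1.5-fold, and there are no error bars because each diet had 1 level. Of the 7 points, 4 lie below the lower dashed line, while ACAT2, PMVK and FDFT1 lie near 0.

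ACAT2, cytosolic acetyl-CoA acetyltransferase, catalyses the entry reaction by joining a pair of acetyl-CoA molecules. Its level on the squalene diet was 92.0% of that on the control diet, a log2 ratio of -0.12. Its mitochondrial counterpart ACAT1, which serves ketone body and isoleucine metabolism, had a log2 ratio of 0.07. The difference between these log2 ratios was -0.19.

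HMGCS1, cytosolic HMG-CoA synthase, adds the next acetyl unit. It had 49.4% of its control level on the squalene diet, a log2 ratio of -1.02.

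MVK, mevalonate kinase, carries out the first phosphorylation of mevalonate. It had the lowest ratio of the 6 genes, with 47.3% of its control level on the squalene diet and a log2 ratio of -1.08. PMVK, phosphomevalonate kinase, adds the second phosphate to the product of MVK. It had 92.0% of its control level on the squalene diet, a log2 ratio of -0.12. Of these consecutive kinases, MVK was thus the lowest of the 6 genes and PMVK, beside ACAT2, among the highest, in a range of 0.96 log2 units.

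MVD, the decarboxylase that follows PMVK, was not analysed here. IDI1, the isomerase that interconverts the isoprenoid units, was found by its gene ID under the symbol LOC100343510, and had 49.7% of its control level on the squalene diet, a log2 ratio of -1.01. A pair of further entries carried the same isomerase annotation. LOC100346274, annotated as an isomerase of the same kind, had a ratio of 0.810 and shared its levels with another gene, and LOC103352172, a non-coding RNA in RefSeq, had 1.15. Reads of such similar copies may have been divided among the entries, so the value of IDI1 is uncertain.

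FDPS, farnesyl diphosphate synthase, condenses the isoprenoid units into the 15-carbon farnesyl diphosphate. Its level on the squalene diet was 60.1% of the control level, a log2 ratio of -0.74. FDFT1, squalene synthase, takes farnesyl diphosphate into the sterol branch and makes squalene itself. It had 87.9% of its control level on the squalene diet, a log2 ratio of -0.19. The enzyme that makes the supplemented compound was thus in the set lower by less than 1.5-fold, 0.55 log2 units above FDPS.

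Ranked from the lowest ratio over all 19123 genes, MVK was number 37, HMGCS1 number 56 and FDPS number 255. FDFT1 was number 4608, PMVK number 5864 and ACAT2 number 5870. Of the 6 genes, 2 were thus in the lowest 1% of the table. These ranks are approximate, because a gene more than 3.16-fold higher would be read as lower. None of the 6 genes shared both levels with another gene, as 1937 genes of the table did. The length given for the transcripts ran from 1445 bases for MVK to 4536 bases for HMGCS1. Both of these genes were lower by more than 1.5-fold.

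**Figure D2:**
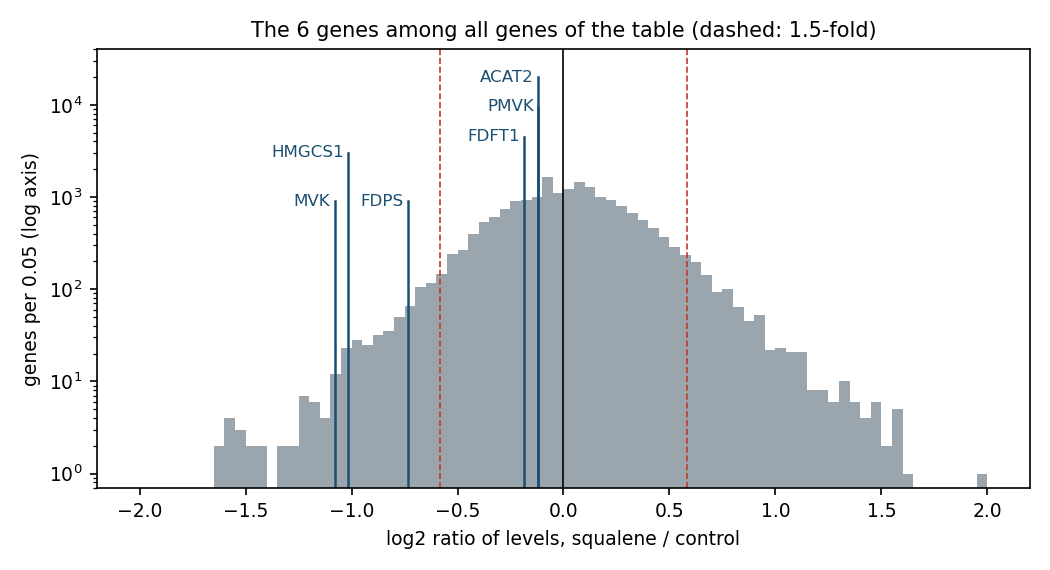
Grey bars count the genes of the table per 0.05 of the log2 squalene/control ratio (vertical axis, logarithmic), and blue lines place the 6 genes on the horizontal axis. MVK, HMGCS1 and FDPS are in the thin left flank outside the dashed 1.5-fold line, and FDFT1, PMVK and ACAT2 lie in the bulk of the genes.

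With IDI1 added, 7 genes of the path to squalene are reported. All 7 were lower on the squalene diet, 4 of them by more than 1.5-fold, with a median log2 ratio of -0.74. Of all genes, 2.99% were lower by more than that. The path was chosen with earlier results known, so nothing is read from the count. The median of all genes was 0.02, and that of the 6 genes alone was -0.46. The study's reference genes for RT-qPCR had log2 ratios of -0.08 for PPIB and -0.02 for GAPDH. Relative to the mean of these reference genes, the log2 ratios of the 6 genes ran from -1.03 to -0.07, all still below 0.

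Of 6 measured genes of branches that leave the path or share its intermediates, none was past 1.5-fold. Among all genes 2.99% were lower and 4.70% higher by more than that, so nothing is read from this count. On the squalene diet 4 of the 6 branch genes had the higher level and 2 the lower, and the median log2 ratio was 0.05. GGPS1, which extends farnesyl diphosphate for protein prenylation, had a ratio of 1.04. DHDDS and NUS1, the subunits of the enzyme that starts dolichol synthesis, had 1.03 and 1.08. PDSS1 and PDSS2 together build the side chain of ubiquinone, and had 0.731 and 0.972. The ratio of PDSS2 turned above 1 when scaled to PPIB and GAPDH. Of all the listed genes, PDSS1 and INSIG1, with log2 ratios of -0.45 and -0.49, lay nearest to the median of the 6 genes. With 1 ratio per gene, no likeness across samples could be measured.

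After squalene, 10 measured genes of the conversion to cholesterol are reported. On the squalene diet 9 were lower, 6 of them by more than 1.5-fold, with a median log2 ratio of -0.63. The share of all genes lower by more than that was 2.99%. This list too was chosen with earlier results known, so nothing is read from the count. The lowest were SQLE, squalene epoxidase, at 41.8% of the control level, and CYP51A1, the lanosterol demethylase, at 49.0%. The highest were LBR, a sterol reductase of the nuclear membrane, at 112% and EBP, a sterol isomerase, at 83.7%. SQLE, which uses squalene, thus had a lower ratio than FDFT1, which makes it.

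Genes of sterol sensing and uptake were mixed. Of the 14 measured, 10 were lower and 4 higher on the squalene diet, and 4 were lower and 1 higher by more than 1.5-fold. Over all genes these shares were 2.99% lower and 4.70% higher, and nothing is read from the counts. The lowest were NPC1L1, a sterol importer, and STARD4, a carrier of cholesterol between membranes, with log2 ratios of -1.03 and -1.01. The highest were INSIG2, which retains the SREBP complex in the endoplasmic reticulum, and TMEM97, a membrane protein that binds the cholesterol transporter NPC1, with log2 ratios of 0.66 and 0.33. SREBF2 itself, named after its value was seen, had 59.5% of its control level, a log2 ratio of -0.75 beside the -0.74 of FDPS.

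The list on the supply and use of cytosolic acetyl-CoA, the substrate of ACAT2, held enzymes, a carrier and a transcription factor. All 5 measured genes were below their control level, 2 of them by more than 1.5-fold. Lower by more than that were 2.99% of all genes, and nothing is read from this count. ACSS2, which makes acetyl-CoA from acetate, had a log2 ratio of -1.50, and ACACA, acetyl-CoA carboxylase, one of -0.99. The ratio of ACSS2, 0.353, lay close to the bound and would be 3.53 if read 1 power of 10 away. SREBF1, whose product SREBP-1 activates fatty acid synthesis, and SLC25A1, the citrate carrier, had the highest ratios of this list, 0.797 and 0.792. Of the factors that act with SREBP-2 at promoters, NFYA and NFYC had ratios of 0.934 and 0.939, NFYB of 1.52 and SP1 of 0.686.

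**Figure D3:**
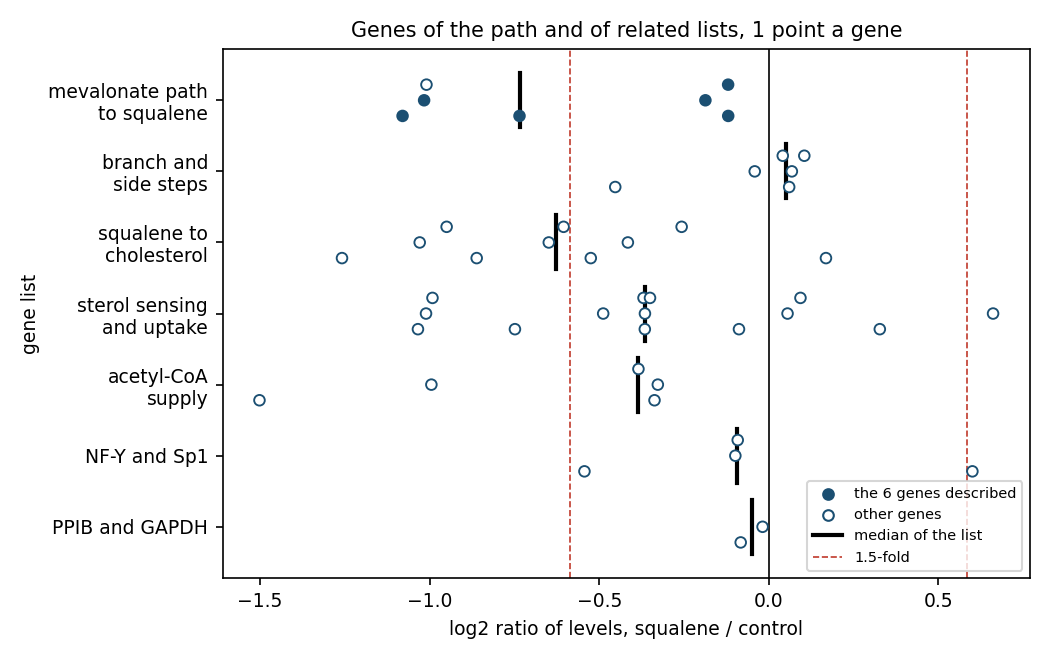
Each point is the log2 squalene/control ratio of a gene (horizontal axis), sorted into lists (vertical axis), with the 6 genes filled, a black bar at the list's median and dashed lines at 1.5-fold. The path to squalene and the steps from squalene to cholesterol have medians of -0.74 and -0.63, and the branch and side steps one of 0.05.

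The genes next to the 6 on the chromosome were compared by their order in the RefSeq annotation of a later rabbit assembly. The nearest pair of measured protein-coding genes on each side gave 24 neighbours, with a median log2 ratio of -0.14. Of these, 1 was lower by more than 1.5-fold and 0 were higher, beside 2.99% and 4.70% of all genes. This gene, TRPV4, a calcium channel, is the second gene on one side of MVK and had a log2 ratio of -1.06. It was named after its value was seen. MMAB, a gene of cobalamin metabolism that in human and mouse shares a promoter with MVK, lay directly beside MVK and had a log2 ratio of -0.29. TCP1, a chaperonin subunit, overlaps ACAT2 in that annotation and had a log2 ratio of -0.06, against the -0.12 of ACAT2. Where such genes overlap, reads cannot be told apart without strand, so the ratio of ACAT2 is uncertain to that extent.

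**Figure D4:**
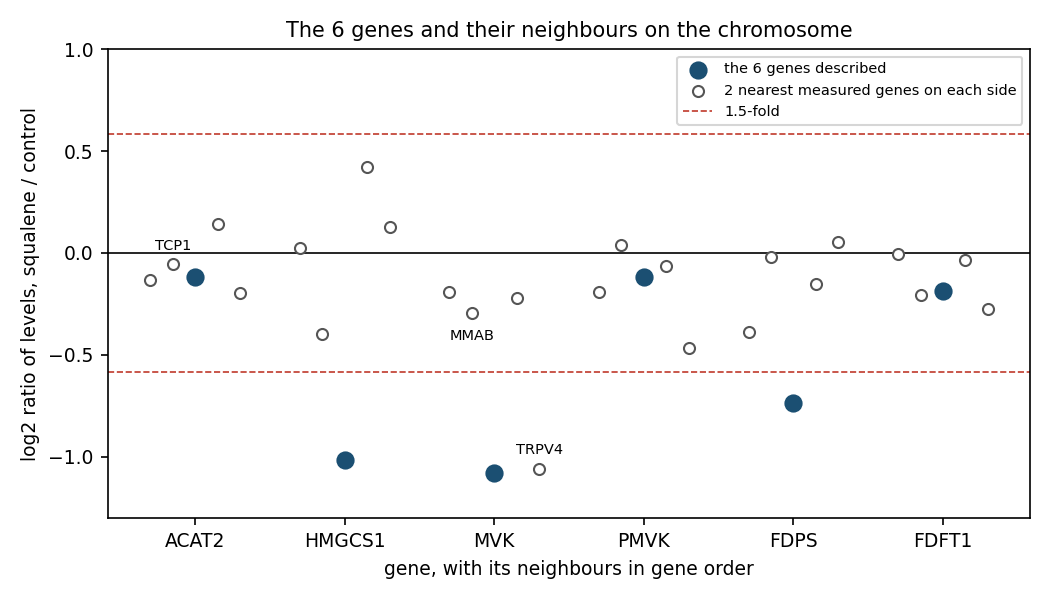
Filled points show the log2 squalene/control ratio (vertical axis) of each of the 6 genes, and open points those of the nearest pair of measured genes on either side, in gene order (horizontal axis). Beside HMGCS1 and FDPS no open point passes the dashed 1.5-fold line, and beside MVK the open point near -1.06 is TRPV4.

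None of the genes of the path was among the 39 genes in the authors' lists of 46 alternative splicing events. Those 39 genes are few beside the 19123 of the table, so nothing is read from the absence. The functional annotation in the table placed MVK, PMVK and FDFT1, with other genes, under cholesterol biosynthesis, so the term holds genes of both sets. It placed HMGCS1 and FDFT1 under isoprenoid biosynthesis. No sequence of these genes or their promoters was analysed here.

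The labels call the samples fresh liver cells, and markers of liver cell types were read in the same way. None of the 9 measured hepatocyte markers was past 1.5-fold, with log2 ratios from -0.39 for CPS1 to 0.43 for TTR. Among all genes 2.99% were lower and 4.70% higher by more than that, so nothing is read from this count. Log2 ratios ran from -0.30 to 0.52 over 4 cholangiocyte markers and from -0.12 to 0.46 over 6 Kupffer cell and macrophage markers. They ran from -0.26 to 0.28 over 6 stellate cell markers, from -0.40 to -0.16 over 5 endothelial markers and from 0.18 to 0.39 over 3 markers of T and B cells. The 5 endothelial markers were thus all lower on the squalene diet, as were the 6 genes, and the part of the cell make-up in the ratios was not tested. Of the 4 muscle markers, ACTA1 and CKM had ratios of 0.931 and 1.09. The muscle proteins MYH6 and TTN lay close to the bounds, so that both readings of their levels are large and opposite in direction. The ratio of MYH6 reads as 0.341 or, 1 power of 10 away, as 3.41, and that of TTN as 2.97 or 0.297. Either reading of each is a difference of more than 1.5-fold, and the direction cannot be told from these levels alone. The part of muscle RNA in the ratios of the 6 genes was not tested.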

How the data were processed

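According to the study's methods, the authors filtered the reads, mapped them to OryCun2.0 with HISAT2, called variants with GATK, added transcripts predicted with StringTie, and obtained gene levels with Bowtie and RSEM, and the deposited file's name points to DESeq2. Versions are not given in the sources used here. The deposited table gives 1 level per diet, and the authors' own columns of fold changes, p-values and adjusted p-values, which were not used. Genes with identical levels differed in length in 256 of 258 groups, so the levels were taken as not divided by length.

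Ratios were computed with Python 3.11.15, numpy 2.4.6 and pandas 2.3.3, and plotted with matplotlib 3.10.9. The lost power of 10 was set to the nearest to 1, or by an intact level, and this step was checked on simulated data. All simulated ratios lay within the bounds, so the check covers the computation only. It cannot tell whether the real ratios lie within the bounds. No filter or pseudocount was applied. Genes were found by symbol, then by gene ID through RefSeq (mOryCun1.1), in which 16248 IDs matched. A test across rabbits, site tables and promoter motifs, all planned, could not be used for these genes, since the levels used here were not per rabbit and neither the OryCun2.0 annotation nor promoter sequences were used here. The 30 library columns of the site tables were not used. From the lists, 4 genes are not reported here and were left out of every list count and median. Named were the 6 genes, every other measured gene of the path and its branches, the 2 highest and 2 lowest of each other list, the RT-qPCR reference genes, the 2 genes nearest the median, and, chosen later, neighbours and markers. The members and lists were chosen with earlier results of these data known. Alternatives were other fold marks, scalings and sets of genes.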

Additional observations from a re-analysis of the deposited data

How the results depend on the processing

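Of the 6 genes, 3 were more than 20% lower, 3 were lower by more than 1.5-fold as deposited and after scaling to the median of all genes or to PPIB and GAPDH, and 2 were lower by more than 2-fold. Over all genes, 12.8% were more than 20% lower and 16.4% more than 25% higher, and 0.361% were lower and 0.638% higher by more than 2-fold. Under the other sets of genes and scalings, between 2.26% and 3.36% of genes were lower and between 4.29% and 6.07% higher by more than 1.5-fold. The median log2 ratio of the 6 genes, -0.46, became -0.74 without ACAT2, PMVK or FDFT1 and -0.19 without HMGCS1, MVK or FDPS, as it lies in the gap between the 2 sets. List medians moved by less than 0.1 under these scalings and with genes found by symbol only, except that of the path to squalene, which became -0.46 against -0.74 as IDI1 then drops out, a choice made after seeing the data, as was the set of genes with levels of 1 or more. No paired analysis was possible because the table has no value per rabbit, and for the same reason no rabbit could be left out. Levels filtered at their median, a pseudocount, sites in the genes and promoter motifs were not run.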
